A study of Mus musculus with 8 samples.

Results

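The 38 genes described here encode proteins that copy the genome in S phase and divide it in mitosis, and they were taken by symbol from a table of 51886 gene symbols. All 38 were in the table, and all 38 passed the filter on low values, as 38 of the 14472 genes tested. They were measured in granulosa cells, the somatic cells that surround the oocyte in the ovarian follicle. The libraries came from PGR-A KO mice (4) and from WT mice of the same strain (4), and PGR-A is an isoform of the progesterone receptor. Mice of both genotypes were 21 to 27 days old and received 5 IU eCG, a hormone that makes follicles grow, and 46 h later 5 IU hCG, which triggers ovulation. Cells were collected 8 h after hCG, and each library pooled the cells of 2 to 3 mice. How the isoform was removed is not given in the sources used here.

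A dividing cell loads the Mcm helicase onto DNA before S phase, fires it with cyclin E and Cdk2, copies the genome behind the Pcna clamp, and then builds a spindle under Cdk1, Plk1 and the Aurora kinases. Many of these genes are transcribed mainly in cells that cycle, under the E2F factors for S phase and under B-Myb and Foxm1 for mitosis. Granulosa cells of growing follicles proliferate, and the ovulatory hormone surge makes them leave the cell cycle as they luteinise. Oocytes are arrested in meiosis and store transcripts of several mitotic regulators, cyclin B1 among them.

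The libraries correlated with each other at 0.970 to 0.991 over the genes tested, on the log2(TPM + 1) scale. TPM is the share of a transcript in its library, corrected for transcript length. It keeps no depth, so no counting interval is given. P-values measure the spread between these pools of mice. Pgr, 1 value for the gene, stood at 2.01 to 3.52 TPM in PGR-A KO libraries and 0.756 to 1.56 TPM in WT libraries. It was higher in PGR-A KO, with a log2 change of 0.88 (SE 0.18, limma unadjusted p = 0.00071, adjusted p = 0.445). This value does not tell isoforms apart, so it does not check the loss of PGR-A. Granulosa markers summed to 4566 to 7598 TPM over the 8 libraries, with Inha and Fst the most abundant, and 0 of the 12 markers were at 0 throughout. Transcripts of oocytes were also present in every library, Gdf9, H1f8 and Padi6 being the most abundant of 16 markers.

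Promoter motifs of cell cycle genes were counted in the members, which are themselves cell cycle genes, so the counts are descriptive. Windows from 250 bases before to 50 after the RefSeq gene start (GRCm38.p6, the assembly also called mm10) matched 31 of the 38 genes by symbol. Tpx2, Mcm4, Foxm1, Ccne2, Aurkb, Ccna2 and Gins2 had no window. Each window was searched on both strands for the CHR motif of mitotic promoters (TTTGAA), the CCAAT box (CCAAT) and an E2F motif. The E2F motif was counted in the form TTCCCGC, and also where the letters were TTGGCGC, or in the further form TTCGCGC, or finally in the form TTGCCGC. These 4 windows are shown because they hold the most kinds of motif, and among equals belong to the most abundant genes. Capitals mark every match, and each sequence runs 5′ to 3′ on the strand of its gene. Cdk1 lies on the minus strand (chr10:69352863-69353162), as do Mki67 (chr7:135716330-135716629) and Top2a (chr11:99024140-99024439), and Rrm2 lies on the plus strand (chr12:24708004-24708303).
Cdk1: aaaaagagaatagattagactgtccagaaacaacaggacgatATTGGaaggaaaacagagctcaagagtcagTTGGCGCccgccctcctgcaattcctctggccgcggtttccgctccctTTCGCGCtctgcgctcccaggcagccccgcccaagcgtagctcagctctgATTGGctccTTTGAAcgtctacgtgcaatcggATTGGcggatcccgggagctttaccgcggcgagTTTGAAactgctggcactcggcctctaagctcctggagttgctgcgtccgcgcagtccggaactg
Mki67: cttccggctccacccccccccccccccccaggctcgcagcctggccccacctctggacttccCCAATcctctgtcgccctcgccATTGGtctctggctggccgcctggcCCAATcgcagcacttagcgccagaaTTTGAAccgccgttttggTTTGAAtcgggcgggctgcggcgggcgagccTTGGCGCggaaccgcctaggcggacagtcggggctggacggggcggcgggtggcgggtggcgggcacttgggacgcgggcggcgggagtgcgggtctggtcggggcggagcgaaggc
Top2a: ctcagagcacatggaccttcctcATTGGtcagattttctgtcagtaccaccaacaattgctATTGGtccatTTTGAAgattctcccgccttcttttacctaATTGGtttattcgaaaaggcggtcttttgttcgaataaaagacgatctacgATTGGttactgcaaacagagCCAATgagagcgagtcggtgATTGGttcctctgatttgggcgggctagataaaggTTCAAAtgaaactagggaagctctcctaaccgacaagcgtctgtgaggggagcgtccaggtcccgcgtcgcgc
Rrm2: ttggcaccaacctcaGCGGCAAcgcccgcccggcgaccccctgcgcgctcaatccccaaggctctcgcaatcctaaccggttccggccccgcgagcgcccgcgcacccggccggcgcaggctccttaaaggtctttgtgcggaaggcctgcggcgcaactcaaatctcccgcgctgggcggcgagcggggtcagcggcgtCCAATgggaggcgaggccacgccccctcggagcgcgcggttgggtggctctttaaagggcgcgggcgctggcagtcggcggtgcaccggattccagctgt

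Cdk1, the kinase that drives mitosis, and Mki67, which encodes the proliferation antigen Ki-67, held all 3 kinds of motif in these windows. In Top2a, the topoisomerase that untangles sister chromosomes, the window held CHR matches 179 and 23 bases before the start and no E2F match. Rrm2, a subunit of the enzyme that makes deoxynucleotides, held an E2F match 235 bases before the start, a CCAAT box and no CHR match. Among 14 genes of licensing, nucleotide supply and S phase entry, 9 held an E2F match and 1 a CHR match. Among 17 mitosis genes, 3 held an E2F match and 12 a CHR match. The CHR match stood in 41.9% of the 31 members with a window, against 17.9% of all 32851 windows. The CCAAT box stood in 77.4% of these members, against 37.4% of all windows, and the E2F match in 38.7%, against 9.57%. Members were counted by gene and the background by window, and Mcm7 and Prc1, with 2 windows each, counted if either matched. CCAAT and E2F matches overlapped in 2 members, Mcm7 and Ccnb1. These shares describe letters in a window and were not tested.

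**Figure D1:**
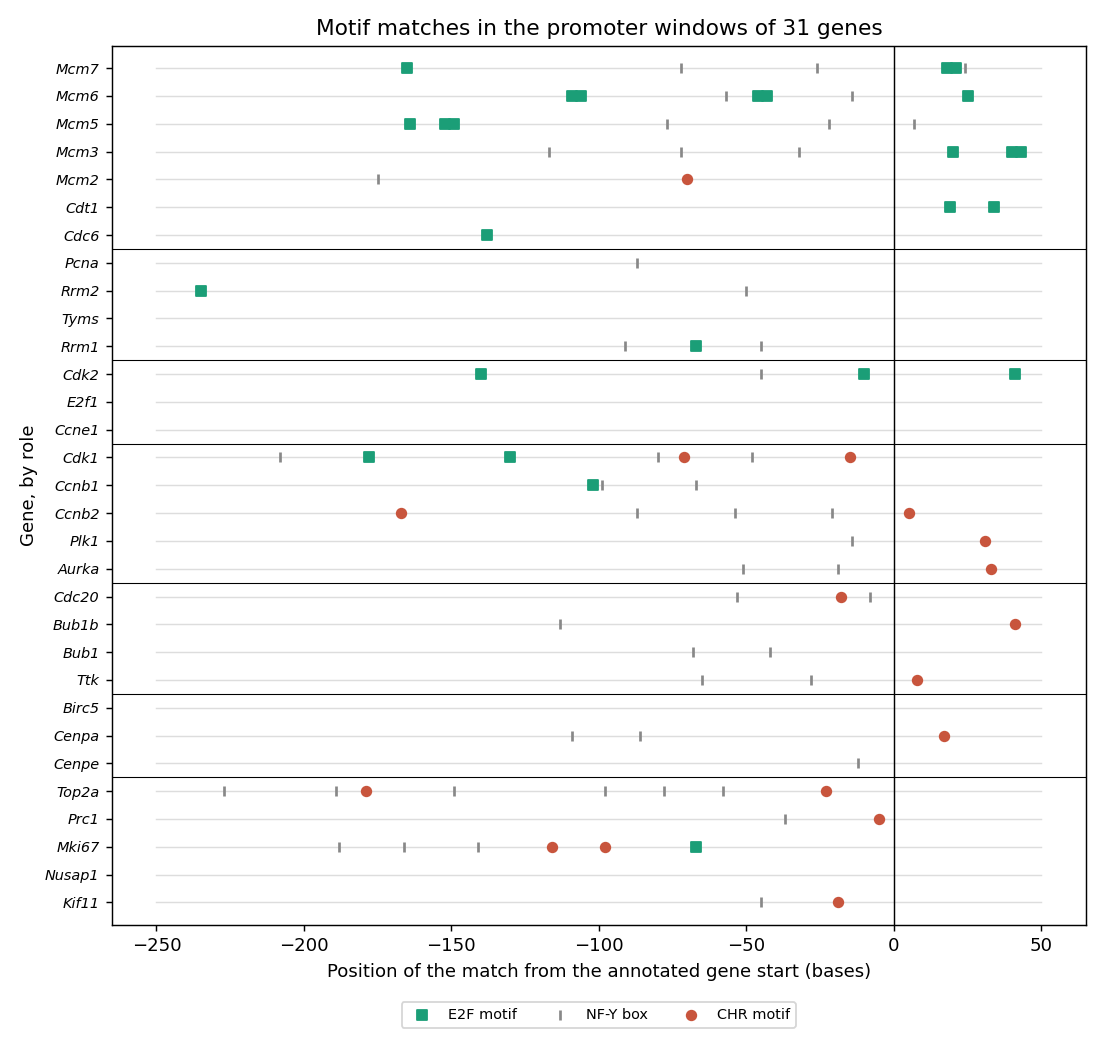
Each line is the promoter window of 1 of 31 genes, grouped by role as in the plot of levels. The horizontal axis is the distance in bases from the annotated gene start, at which each match to the E2F motif (squares), the NF-Y or CCAAT box (ticks) and the CHR motif (circles) begins. Squares gather in the S phase genes at the top and circles in the mitosis genes below, with 9 of 14 and 12 of 17 genes holding one.

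Transcripts of the whole cell cycle were present 8 h after hCG in both genotypes. Summed, the 38 genes held 1945, 2244, 2073 and 1903 TPM in the PGR-A KO libraries, against 1930, 1775, 2168 and 2051 TPM in the WT libraries, between 0.178% and 0.226% of each library's TPM. The groups overlapped over most of their range, with both the lowest and the second highest of the 8 sums in WT libraries. In bulk samples fewer cells of a type and less RNA per cell cannot be told apart.

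Pcna, Cdk1 and Top2a were the most abundant members, with means over the 8 libraries of 163, 157 and 131 TPM. Rrm2 followed at 92.7 TPM and Ccnb1 at 87.1 TPM. At the other end stood Ccne1 at 7.34 TPM, Cdc6 at 8.44 TPM and Ccne2 at 12.9 TPM, all of which act before or at the entry to S phase. In all, 32 of the 38 genes averaged above 20 TPM, and 33 lay in the upper part of the 14472 genes tested, above their median level. In this order of levels 36 of the 37 neighbouring pairs had ranges over the 8 libraries that overlapped. The exception was the step between Top2a (118.7 TPM at its lowest) and Rrm2 (116.0 TPM at its highest).

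**Figure D2:**
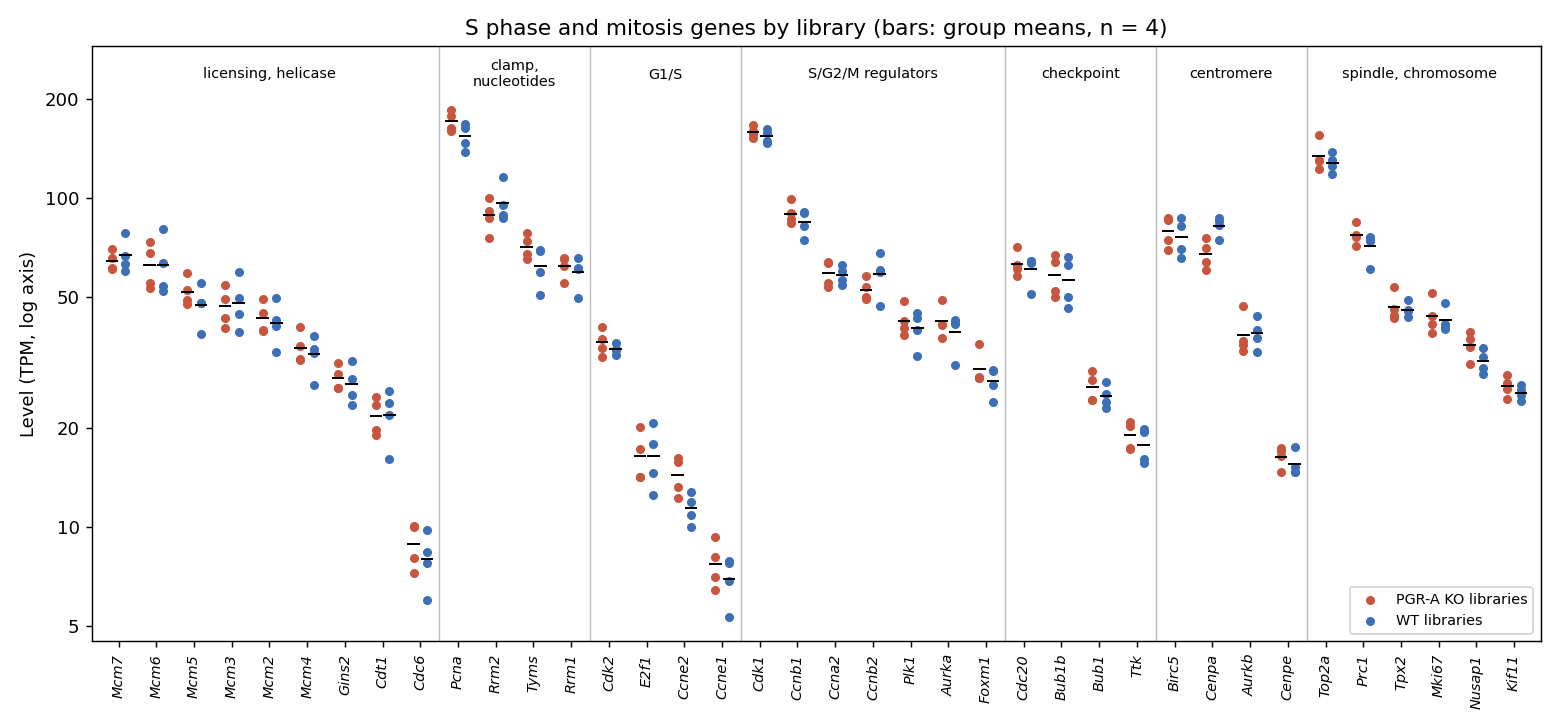
Level in TPM (vertical log axis) of each gene in the 4 PGR-A KO libraries (left points of each pair) and 4 WT libraries (right points), with short bars at the group means, by role. The mean levels run from under 10 TPM for Ccne1 and Cdc6 to 157 TPM for Cdk1 and 163 TPM for Pcna, and in every gene the points of the 2 genotypes overlap.

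No member differed between the genotypes past the threshold. On the log2(TPM + 1) scale, limma called 0 of the 38 members at an adjusted p under 0.05, where 0.0138% of all genes tested were called. At an unadjusted p under 0.05 there were 2 members, where 6.31% of all genes tested passed. They were Ccne2, higher in PGR-A KO as 0.974% of all genes were, and Cenpa, lower as 5.33% of all genes were. With TMM factors there were 6 members (15.8%), where 5.79% of all genes tested passed. These were Ccne2, Pcna, Tyms, Nusap1 and Prc1, higher in PGR-A KO, and Cenpa, lower, and each had an adjusted p of 0.779 in limma. In 0 of the 38 genes did the libraries of the genotypes fall apart without overlap, against 3.42% of all genes tested. On the unscaled log2(TPM + 1) values the 95% interval of the change stayed within 0.5 in either direction for 37 members. For Ccne2 it reached 0.57. These bounds hold for that scale only: with TMM factors the median change of the members was 0.115, against 0.065. A p that misses the threshold does not show that the levels were equal.

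The log2 change was above 0 in 32 members, where it was above 0 in 42.6% of all genes tested, and the median over the members was 0.065, against -0.023 over all genes. With TMM factors 34 members and 56.9% of all genes were above 0. The arithmetic mean in TPM was higher in PGR-A KO for 29 members, since Mcm6, Cdt1 and E2f1 had lower means in TPM at a log2 change just above 0. These counts depended on single libraries: without WT replicate 2 there were 21 members above 0 and the median was 0.0033, and without PGR-A KO replicate 2 there were 23 and the median was 0.015. WT replicate 2 had the lowest summed oocyte markers of the 8 libraries, at 733 TPM, the highest summed granulosa markers, at 7598 TPM, and the lowest erythroid markers, at 1733 TPM. Inha made up 4645 TPM of that granulosa sum. All granulosa markers but Foxl2, Gata4 and Amh were highest there, and Amh was lowest there. The sum of the endothelial markers was also highest there, at 59.0 TPM, though Pecam1, Kdr and Erg were each highest in another library. Of the theca markers Aldh1a1 alone stood apart there, at 212 TPM against 58.0 to 82.2 TPM in the other 7 libraries, and the other 5 summed to 53.2 TPM against 41.2 to 53.7 TPM. The part of these in the result was not tested.

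**Figure D3:**
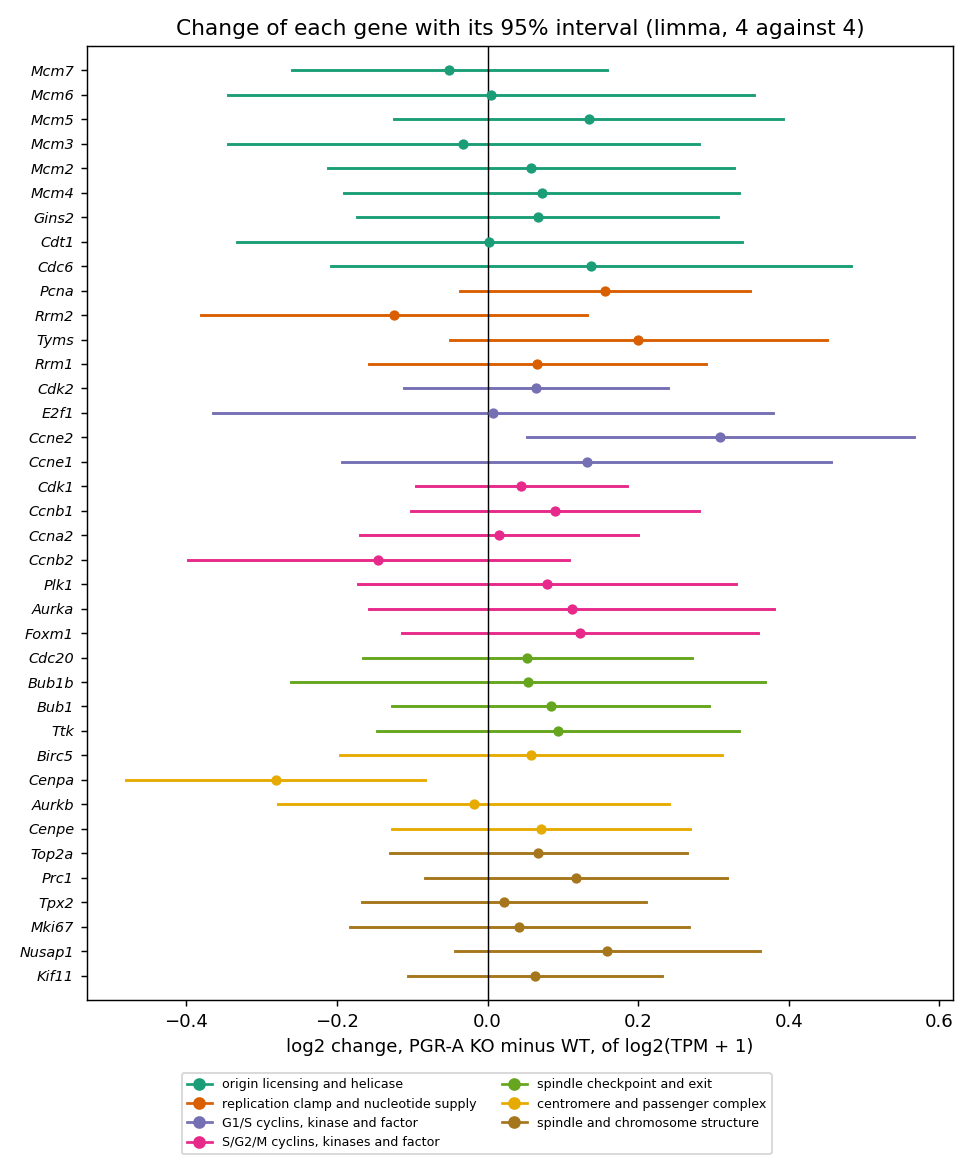
Log2 change of each gene, PGR-A KO minus WT, of log2(TPM + 1) on the horizontal axis (points) with its 95% interval from limma (lines), coloured by role. The intervals of 36 genes include 0, and those of Ccne2, above 0, and Cenpa, below 0, do not.

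Among the 9 licensing and helicase genes, 0 passed and unadjusted limma p ran from 0.269 to 0.989. Mcm2 to Mcm7 encode the subunits of the replicative helicase, Cdc6 and Cdt1 load it onto origins, and Gins2 belongs to its active form. The most abundant was Mcm7 (chromosome 5, 138164583 to 138172422, minus strand, mm10), at 61.2, 69.8, 65.9 and 60.7 TPM in PGR-A KO, against 63.0, 60.1, 78.4 and 66.5 TPM in WT. WT replicate 3 lay above the other 7 libraries, which overlapped. Mcm5 had the lowest p of the group, with 48.9, 59.1, 52.4 and 47.6 TPM in PGR-A KO, against 48.1, 38.5, 55.2 and 48.1 TPM in WT. The WT libraries of Mcm5 included the lowest and the second highest value, and the log2 change was 0.13 (SE 0.11, limma adjusted p = 0.878). Means of the other helicase subunits lay between 35.1 and 62.4 TPM in PGR-A KO and between 33.5 and 62.6 TPM in WT. Gins2 averaged 28.4 ± 2.43 TPM in PGR-A KO and 27.2 ± 3.73 TPM in WT (SD, n = 4 each). The loader Cdt1 averaged 21.8 ± 2.82 TPM in PGR-A KO and 21.9 ± 4.22 TPM in WT, and Cdc6 8.87 ± 1.43 TPM in PGR-A KO and 8.01 ± 1.58 TPM in WT (SD, n = 4 each).

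Among the genes of the clamp and of nucleotide supply, 3 of 4 had a log2 change above 0 and 0 passed. Pcna (chromosome 2, 132249162 to 132253314, minus strand), the sliding clamp of DNA polymerases, held 159.8, 185.5, 177.5 and 163.5 TPM in PGR-A KO, against 147.0, 137.6, 168.5 and 163.5 TPM in WT. WT replicates 1 and 2 lay below every PGR-A KO library, and WT replicates 3 and 4 among them. For Pcna limma gave a log2 change of 0.16 (SE 0.085, adjusted p = 0.797). Tyms, which encodes thymidylate synthase, held 67.6, 78.1, 73.9 and 65.5 TPM in PGR-A KO, against 59.5, 50.7, 69.2 and 69.5 TPM in WT, with the same pair of WT libraries low. The log2 change of Tyms was 0.20 (SE 0.11, limma adjusted p = 0.801). The ribonucleotide reductase genes had opposite signs, with Rrm1 at 62.1 ± 4.80 TPM in PGR-A KO and 59.5 ± 6.98 TPM in WT (SD, n = 4 each). Rrm2 averaged 88.6 ± 10.1 TPM in PGR-A KO and 96.8 ± 13.3 TPM in WT (SD, n = 4 each).

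Ccne2 had the largest positive change of the 38 genes. Cyclin E2, its product, activates Cdk2 at the entry to S phase. Ccne2 (ENSMUSG00000028212.16, chromosome 4, 11191351 to 11204779, plus strand) held 13.3, 16.2, 15.8 and 12.3 TPM in PGR-A KO, against 9.98, 10.9, 12.8 and 11.9 TPM in WT. Only WT replicate 3 reached into the PGR-A KO range, above its lowest library. The log2 change of Ccne2 was 0.31 (SE 0.11, unadjusted p = 0.0234, limma adjusted p = 0.776), and the exact 2-sided permutation p was 0.0571, where the smallest the design allows is 0.0286. The unadjusted p of Ccne2 was no longer under 0.05 when replicate 2 or 3 of PGR-A KO, or replicate 1 or 2 of WT, was left out. Exons of Ccne2 overlap those of Ints8 on the opposite strand over 609 bases. Use of strand in counting is not given in the sources used here, so whether reads there were told apart is not known. Ints8 itself averaged 28.4 ± 1.09 TPM in PGR-A KO and 28.7 ± 0.873 TPM in WT (SD, n = 4 each).

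The other genes of S phase entry had smaller changes. Cdk2, the kinase that both E cyclins bind, held 37.4, 40.6, 35.0 and 33.0 TPM in PGR-A KO, against 36.4, 34.7, 34.8 and 33.2 TPM in WT, and the WT libraries all lay inside the PGR-A KO range. Ccne1, the other cyclin E gene, averaged 7.72 ± 1.26 TPM in PGR-A KO and 6.97 ± 1.19 TPM in WT (SD, n = 4 each). E2f1, an activator of S phase genes, averaged 16.4 ± 2.87 TPM in PGR-A KO and 16.4 ± 3.57 TPM in WT (SD, n = 4 each). Its log2 change of 0.0073 had an interval from -0.36 to 0.38, the widest among the members.

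Of the 7 regulators from S phase to mitosis 0 passed, and 6 had a log2 change above 0. Cdk1 (chromosome 10, 69335146 to 69352938, minus strand) held 152.7, 167.3, 159.8 and 156.2 TPM in PGR-A KO, against 149.2, 147.2, 157.9 and 162.4 TPM in WT. WT replicates 3 and 4 lay among the PGR-A KO libraries and WT replicates 1 and 2 below them. Cdk1 had the smallest ratio of highest to lowest library among the 38 genes, 1.14, and the interval of its log2 change, -0.095 to 0.19, was the narrowest. Its cyclin partners differed in sign. Ccnb1 averaged 89.8 ± 6.67 TPM in PGR-A KO and 84.4 ± 7.48 TPM in WT (SD, n = 4 each). Ccnb2 held 50.2, 57.8, 53.8 and 49.2 TPM in PGR-A KO, against 46.9, 59.7, 68.0 and 60.6 TPM in WT. WT replicate 1 of Ccnb2 was the lowest of all 8 libraries and the other WT libraries were the 3 highest (log2 change -0.14, SE 0.11, limma adjusted p = 0.862). Ccna2, cyclin A2, averaged 59.1 ± 5.36 TPM in PGR-A KO and 58.4 ± 3.58 TPM in WT (SD, n = 4 each). Plk1 and Aurka, kinases of spindle assembly, averaged 42.4 and 42.3 TPM in PGR-A KO and 40.2 and 39.2 TPM in WT. Foxm1, a transcription factor of mitotic genes, averaged 30.3 ± 3.80 TPM in PGR-A KO and 27.7 ± 2.77 TPM in WT (SD, n = 4 each).

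All 4 genes of the spindle checkpoint and mitotic exit had log2 changes between 0.053 and 0.094, and 0 passed. Cdc20, which activates the ligase that ends metaphase, held 62.5, 71.0, 57.9 and 60.9 TPM in PGR-A KO, against 64.5, 51.2, 64.3 and 63.5 TPM in WT. WT replicate 2 stood below the other 7 libraries, which overlapped. The checkpoint kinase gene Bub1 averaged 26.6 ± 2.79 TPM in PGR-A KO and 25.0 ± 2.01 TPM in WT, and Ttk 19.0 ± 1.90 TPM in PGR-A KO and 17.8 ± 2.16 TPM in WT (SD, n = 4 each). Bub1b, which encodes the checkpoint protein BubR1, averaged 58.3 ± 8.42 TPM in PGR-A KO and 56.3 ± 9.58 TPM in WT (SD, n = 4 each).

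Cenpa had the lowest p of the 38 genes and was the member with the largest negative change. It encodes the histone H3 variant that marks centromeres. Cenpa (ENSMUSG00000029177.9, chromosome 5, 30666777 to 30674830, plus strand) held 75.8, 70.7, 63.9 and 60.4 TPM in PGR-A KO, against 74.4, 82.7, 85.1 and 87.1 TPM in WT. The groups overlapped only through PGR-A KO replicate 1 and WT replicate 1. The log2 change of Cenpa was -0.28 (SE 0.088, unadjusted p = 0.0106, limma adjusted p = 0.721), with an exact 2-sided permutation p of 0.0571. Over the 18 alternatives to the fit its log2 change ran from -0.34 to -0.23, with a limma adjusted p from 0.0837 to 1.00. Of the other centromere and passenger genes, Birc5, which encodes survivin, held 74.8, 85.8, 87.3 and 69.3 TPM in PGR-A KO, against 70.02, 65.6, 82.5 and 87.1 TPM in WT, and these libraries were intermixed. Aurkb, the kinase of the passenger complex, averaged 38.5 ± 5.75 TPM in PGR-A KO and 38.9 ± 4.18 TPM in WT (SD, n = 4 each). The centromere motor gene Cenpe averaged 16.4 ± 1.18 TPM in PGR-A KO and 15.6 ± 1.37 TPM in WT (SD, n = 4 each).

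All 6 genes of spindle and chromosome structure had a log2 change above 0, from 0.022 to 0.16, and 0 passed. Top2a (chromosome 11, 98992943 to 99024189, minus strand) held 122, 156, 129 and 131 TPM in PGR-A KO, against 125, 119, 138 and 130.2 TPM in WT. PGR-A KO replicate 2 was the highest library and the others were intermixed. Nusap1, a microtubule bundling protein, held 31.4, 37.3, 39.2 and 35.2 TPM in PGR-A KO, against 29.2, 30.5, 32.9 and 35.0 TPM in WT. Its WT libraries reached into the PGR-A KO range in 2 cases (log2 change 0.16, SE 0.090, limma adjusted p = 0.803). Prc1, which bundles the central spindle, held 77.1, 84.8, 76.1 and 71.5 TPM in PGR-A KO, against 74.1, 60.9, 76.1 and 74.4 TPM in WT. For Prc1 WT replicate 2 again stood below all the others (log2 change 0.12, SE 0.089, limma adjusted p = 0.857). Exons of Prc1 and Nusap1 overlap genes on the opposite strand, Rccd1 over 911 bases and Oip5 over 172 bases. Mki67 averaged 44.0 ± 5.52 TPM in PGR-A KO and 42.5 ± 3.60 TPM in WT (SD, n = 4 each). The motor gene Kif11 and the Aurora A activator Tpx2 averaged 26.8 and 46.7 TPM in PGR-A KO and 25.6 and 45.8 TPM in WT.

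Libraries of 1 genotype also differed from each other. Within groups the members had a median SD of 0.16 on the log2 scale, against 0.14 over the 9163 genes in the same range of levels. The lowest of the 8 libraries was WT replicate 2 in 26 of the 38 members, where it was lowest in 19.3% of all genes tested. PGR-A KO replicate 2 was the highest in 22 members, where it was highest in 15.7% of all genes tested, and WT replicate 3 in 10, where it was highest in 19.2% of all genes tested. The median deviation from the mean of a member was 0.19 in PGR-A KO replicate 2, 0.10 in WT replicate 3 and -0.23 in WT replicate 2 on the log2 scale.

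The highest library was not the same for each role group. WT replicate 3 was the highest library for 6 of the 9 licensing and helicase genes, all 9 of which were lowest in WT replicate 2. PGR-A KO replicate 2 was the highest for 6 of the 7 regulators from S phase to mitosis and for 5 of the 6 genes of spindle and chromosome structure. PGR-A KO replicate 3 was the highest for Bub1b, Ttk, Birc5 and Nusap1. Rrm2 and Cenpa had extremes of their own: Rrm2 was highest in WT replicate 1 (116 TPM) and lowest in PGR-A KO replicate 3 (75.7 TPM), and Cenpa was highest in WT replicate 4 and lowest in PGR-A KO replicate 4.

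**Figure D4:**
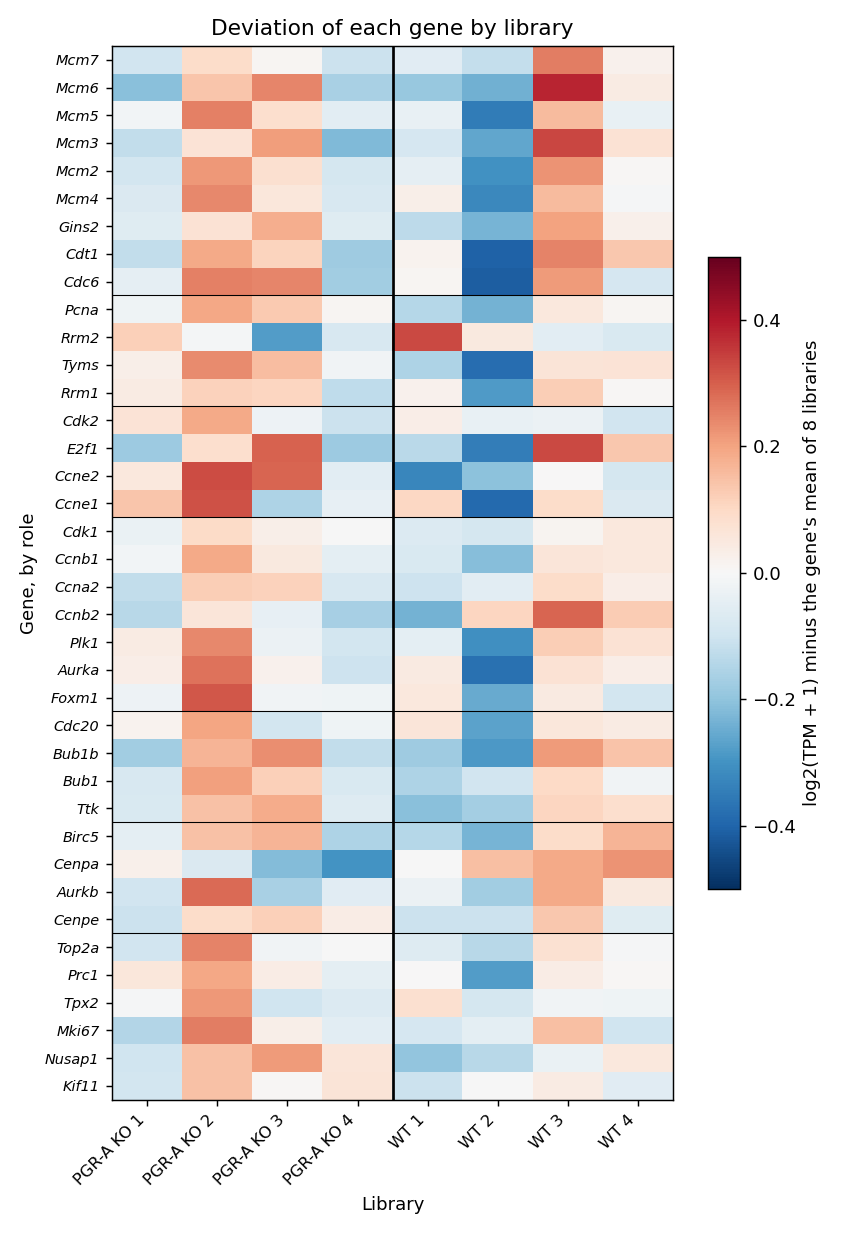
Each cell is the log2(TPM + 1) of a gene (rows, by role) in a library (columns, PGR-A KO left of WT) minus the mean of that gene over the 8 libraries. The column of PGR-A KO replicate 2 is red, above the mean, in 36 genes and that of WT replicate 3 in 34, while that of WT replicate 2 is blue, below it, in 35 genes, all but Ccnb2, Cenpa and Rrm2.

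Oocyte markers moved with several of these libraries. Their sum over 16 genes was 1081, 1428, 1772 and 1000.4 TPM in PGR-A KO, against 1061, 733, 1368 and 1330 TPM in WT, a ratio of 2.42 between the highest and the lowest library, and 0 of the 16 genes were at 0 throughout. For the 38 members that ratio was 1.26. The mean sum was 1320 ± 354 TPM in PGR-A KO and 1123 ± 294 TPM in WT (SD, n = 4 each, exact 2-sided permutation p = 0.400). All 15 oocyte markers that passed the filter were highest in PGR-A KO replicate 3 and lowest in WT replicate 2. PGR-A KO replicate 3, highest in oocyte markers, was the highest library in 4 of the 38 members, where it was highest in 13.4% of all genes tested. It lay above the mean in 27 of the 38 members, whose sum there was 2073 TPM. By sum, the other libraries stood in the same order for oocyte markers and for the members, from PGR-A KO replicate 2 down to WT replicate 2. What oocyte transcripts contribute to the level of each member was not tested. Summed granulosa markers were 4566 to 5938 TPM in PGR-A KO and 5054 to 7598 TPM in WT, with PGR-A KO replicate 3 the lowest and WT replicate 2 the highest. Macrophage markers summed to 54.1 to 112 TPM in PGR-A KO and 83.8 to 113 TPM in WT, and endothelial markers to 23.2 to 40.6 TPM in PGR-A KO and 30.5 to 59.0 TPM in WT. Erythroid markers, mostly globin genes, had the widest spread of the marker lists. They summed to 5504, 3662, 6319 and 4879 TPM in PGR-A KO, against 4160.0, 1733, 11370 and 4954 TPM in WT. WT replicate 2, lowest in 26 members, was the lowest in them, and WT replicate 3, highest in 10 members, was the highest, while PGR-A KO replicate 2, highest in 22 members, was the second lowest. Their part in the levels of the members was not tested.

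**Figure D5:**
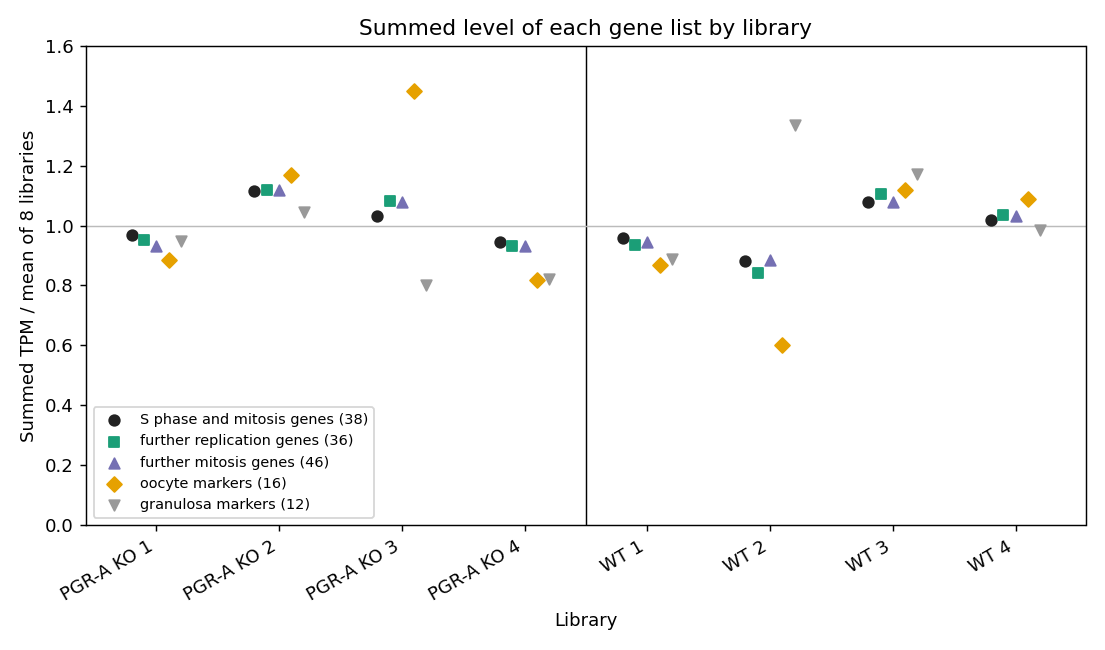
Summed TPM of 5 gene lists in each library, divided by the mean of the 8 libraries (vertical axis, linear from 0), with PGR-A KO libraries left of WT libraries. The 3 cell cycle lists stay close together and near 1, while oocyte markers spread from 733 TPM in WT replicate 2 to 1772 TPM in PGR-A KO replicate 3. The 3 cell cycle lists, too, are lowest in WT replicate 2.

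Genes of the same pathway outside the 38 were counted in lists of their own. Of 36 further replication genes, 0 passed the adjusted threshold. At an unadjusted limma p under 0.05 there were 0, where 6.31% of all genes tested passed. A log2 change above 0 was found in 30 of them (83.3%, median 0.064), against 42.6% of all genes tested. The most abundant were Slbp, the histone mRNA binding protein, at 95.3 ± 10.8 TPM in PGR-A KO and 95.1 ± 7.97 TPM in WT, and Dut, a dUTPase, at 66.4 ± 8.63 TPM in PGR-A KO and 66.9 ± 8.46 TPM in WT (SD, n = 4 each). The lowest p were those of Clspn, a replication checkpoint adaptor (14.4 ± 0.921 TPM in PGR-A KO and 12.7 ± 1.41 TPM in WT, SD, n = 4 each), and of the licensing inhibitor Gmnn (56.5 ± 4.70 TPM in PGR-A KO and 50.7 ± 5.13 TPM in WT, SD, n = 4 each). Of 46 further mitosis genes, 0 passed, and 35 (76.1%, median 0.049) had a log2 change above 0, against 42.6% of all genes tested. Like the members, both lists had their lowest sum in WT replicate 2 and their highest in PGR-A KO replicate 2. In the mitosis list 1 gene had an unadjusted limma p under 0.05, where 6.31% of all genes tested passed. That gene was Ect2, an exchange factor for cytokinesis, at 30.7, 31.2, 27.0 and 28.1 TPM in PGR-A KO, against 26.3, 22.6, 25.0 and 27.8 TPM in WT (log2 change 0.20, SE 0.085, unadjusted p = 0.0459, limma adjusted p = 0.783). WT replicate 4 of Ect2 lay above the lowest PGR-A KO library. Aspm, a spindle pole protein, was next by p, at 73.2 ± 17.4 TPM in PGR-A KO and 58.2 ± 11.1 TPM in WT (SD, n = 4 each). The most abundant were Hjurp, the chaperone that places the Cenpa protein on centromeres, and Ube2c, a ubiquitin-conjugating enzyme of mitotic exit. Hjurp averaged 163 ± 33.5 TPM in PGR-A KO and 180 ± 33.1 TPM in WT, with a log2 change of -0.16 (SE 0.17, limma adjusted p = 0.909, n = 4 each). Ube2c averaged 135 ± 12.03 TPM in PGR-A KO and 131 ± 11.5 TPM in WT (SD, n = 4 each).

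Some members share sequence with other genes. In the GENCODE M21 transcripts 6 members share at least 100 bases at 98% identity or more with another gene, the longest stretches being those of Ccnb1 with Ccnb1-ps (1287 bases) and Gm12856 (1294 bases) and of Pcna with Pcna-ps2 (781 bases). Each of these partners averaged under 1 TPM, and how reads were divided between the copies is not given. Exons of 7 members overlap those of a gene above 1 TPM on the opposite strand: Mcm7, Gins2, Ccne2, Ccna2, Cdc20, Nusap1 and Prc1.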

How the data were processed

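Granulosa cell mRNA was sequenced from 4 PGR-A KO and 4 WT pools of mice with a TruSeq mRNA kit and paired-end NovaSeq reads, per the labels' protocols. The authors deposited 1 table of TPM. Per the submitters' processing notes the build was mm10, and the tools were limma, edgeR, Salmon and FastQC, with neither version nor role stated. Annotation, strand setting and summing to genes: not given in the sources used here. Library totals were 994519 to 997022 TPM. Filtering kept 14472 genes that reached 1 TPM in 4 or more of the 8 libraries. The 2-sided test was limma 3.58.1 in R 4.3.3 on log2(TPM + 1), using an intensity trend and no covariate, adjusted by Benjamini-Hochberg over all genes, with a threshold of 0.05. Fold changes on this scale understate changes of low genes. Single values were compared by the exact permutation test over 70 assignments. The members and lists were chosen with earlier results of these data known. Values of every library are given for the most abundant member of each role group and the 8 members with the lowest p. Of the further lists, the 2 most abundant genes and the 2 with the lowest p are named. Other genes named with values (Pgr, Ints8, marker lists) are checks. Positions are from GENCODE M21, promoters from RefSeq, and shared sequence was searched with BLASTN 2.17.0. Alternatives were other pseudocounts, filters, scalings and limma settings, a replicate block and each library left out.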

Additional observations from a re-analysis of the deposited data

Results flagged for a closer look

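Of 76 groups of 4 libraries (each member in each genotype), 4 had 1 library far from the other 3, where chance gives about 3.8. WT replicate 2 lay below the other WT libraries in Aurka (31.01 TPM, the others 41.4 to 42.5 TPM), in Cdc20 (51.2 TPM, the others 63.5 to 64.5 TPM) and in Prc1 (60.9 TPM, the others 74.1 to 76.1 TPM). PGR-A KO replicate 2 lay above the other PGR-A KO libraries in Foxm1 (36.01 TPM, the others 28.3 to 28.5 TPM). The summed oocyte markers were 733 TPM in WT replicate 2 and 1428 TPM in PGR-A KO replicate 2, and their part in these values was not tested.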

How the results depend on the processing

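No member passed an adjusted p of 0.05 in limma under any of the 18 alternatives, where the lowest adjusted p of a member was 0.0837. The fit without both PGR-A KO replicate 3 and WT replicate 1, chosen after seeing the data, gave that p and 1131 genes past the threshold over all genes, against 2 in the full fit. A pseudocount of 5 gave 1 gene, and with a library left out the count ran from 0 (without WT replicate 2) to 6 (without PGR-A KO replicate 3). With TMM factors 6 members (15.8%) and 5.79% of all genes had an unadjusted p under 0.05, against 2 members (5.26%) and 6.31% in the full fit. The members with a log2 change above 0 numbered 32, and 21 to 35 with a library left out, with a median change from 0.0033 to 0.13. Over all genes the share above 0 was 42.6%, and 35.2% to 47.9% with a library left out. Of 684 log2 changes of a member under an alternative, 636 kept their sign, and 18 members kept it throughout. With TMM factors Mcm3 (0.018) and Aurkb (0.032) changed sign, and with quantile normalization Aurkb (0.018). Without both libraries Ttk (-0.0063), Gins2 (-0.015), Birc5 (-0.027), Cdt1 (-0.028), Ccna2 (-0.052), Bub1b (-0.066), E2f1 (-0.13), Mcm6 (-0.14), Aurkb (0.020) and Rrm2 (0.037) did, and the cause was not tested. With a library left out the log2 change ran from -0.034 to 0.14 for Mcm2, -0.12 to 0.073 for Mcm3, -0.024 to 0.14 for Mcm4, -0.076 to 0.13 for Mcm6, -0.10 to 0.026 for Mcm7, -0.13 to 0.085 for Cdt1, -0.017 to 0.12 for Rrm1 and -0.11 to 0.12 for E2f1. It ran from -0.023 to 0.059 for Ccna2, -0.0093 to 0.13 for Plk1, -0.034 to 0.13 for Bub1b, -0.027 to 0.092 for Cdc20 and -0.12 to 0.041 for Aurkb. For Birc5 it ran from -0.010 to 0.12, for Tpx2 from -0.046 to 0.059, for Top2a from -0.0045 to 0.11 and for Mki67 from -0.036 to 0.099. The difference in summed oocyte markers ran from 46.8 to 304 TPM. Deviations of same-numbered libraries correlated at 0.36, -0.11, 0.39 and -0.29, and such mixed values cannot decide whether the replicate numbers pair the libraries. With the replicate block 0 members and 2 genes passed, and 1368 genes had an unadjusted p under 0.05, against 913. TPM keeps no depth, so counting error could not be set beside these values.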
